A study of Mus musculus with 35 samples.

Results

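Liver tumors of mice given diethylnitrosamine (DEN) were compared with liver of mice never exposed to it, taking the arrays by their titles: 5 of DEN tumor and 5 of DEN control, 10 of the 35 arrays of the series. DEN tumor mice received 10 mg per kg of DEN into the peritoneum on day 15 of life and were examined at 9 months. DEN control mice were untreated and, per the labels, matched for age and sex; neither group is labelled with a transgene, and the strain is not named. Tumor tissue was dissected by eye and checked by histology. The 5 arrays of non-tumorous liver (NTL) of DEN-treated mice, and the 4 control arrays of the other experiments of the series, serve below only as points of reference. By their identifiers, the NTL arrays come from other mice than the tumors.

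DEN is an alkylating carcinogen that hepatocytes themselves activate, mainly through the cytochrome P450 enzyme CYP2E1, and the resulting DNA adducts become fixed as mutations while the young liver still grows. Hepatocellular tumors that follow usually lose part of the adult metabolic program and regain genes of the fetal liver, such as Afp. In the normal lobule, hepatocytes near the central vein follow Wnt signals and those near the portal vein run urea and glucose synthesis, so a tumor can also resemble one zone or the other.

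Expression is given as log2 values, on which 1 unit is a 2-fold difference, and differences as tumor minus control with the standard error of limma's fit. A gene was called at a Benjamini-Hochberg adjusted p under 0.05 over the 18820 genes tested. Of these, 2832 were called higher in DEN tumor (15.0%) and 2943 lower (15.6%), while the median difference over all genes was -0.03. The change was at least 2-fold for 775 of the higher genes (4.12%) and 455 of the lower ones (2.42%), 6.54% together. All 5 tumors lay above all 5 controls for 10.1% of genes and below them for 10.8%. In NTL, by the same test against the same controls, 13 genes were called higher (0.0691%) and 24 lower (0.128%), 0.197% of genes together.

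The arrays did not all follow their labels or stand equally apart. DEN control replicate 3 had a level of Xist, which coats the silenced X, of 12.02, against 3.72 to 4.41 in the tumors and 3.98 to 6.24 in the other controls, and its Y-linked genes Eif2s3y, Kdm5d and Uty were at 4.85, 4.67 and 4.37, against 8.98 to 9.24, 7.81 to 8.02 and 8.24 to 8.27 in the other controls. These values go against the label of a sex-matched control, so the count of a list without that array is given wherever it differs. The 4 control arrays of the other experiments are not alike in these Y-linked genes either. They ranged from 3.88 to 9.19 for Eif2s3y, 4.21 to 8.08 for Kdm5d and 3.57 to 8.31 for Uty. Tumor replicates 1 and 4 share the stem of their mouse identifier, as do replicates 3 and 5, so the 5 tumors may come from 3 mice, and p-values then partly measure spread within a mouse. Replicates 3 and 5 differed by more than 2-fold in 108 genes and replicates 1 and 4 in 460, against 584 to 803 genes for the 8 pairs with different stems. Control pairs differed that much in 24 to 331 genes. The liver label was checked on Alb, the main plasma protein, which lay at 13.60 to 13.78 in the tumors and 13.62 to 13.72 in the controls (adjusted p 0.563), and on the hepatocyte regulator Hnf4a at 12.15 to 12.41 and 12.04 to 12.31 (adjusted p 0.437). Of 19 genes that define hepatocytes, 7 were called lower and 4 higher (median -0.14), 6 had all tumors below all controls, and the mean level of the list was 12.54 to 12.65 in the tumors and 12.80 to 12.92 in the controls.

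Promoter sequences of 4 genes are shown first, because members of 3 of the responses described below share short motifs there. Each is the 150 bases before the RefSeq start (GRCm38.p6, shown 5′ to 3′ on the gene's strand), with the matches in capitals. Asns, among the 12 largest rises, holds a match to the C/EBP-ATF response element TGATGNAA at bases 23 to 16 before the start (chr6:7693210-7693359, minus strand).
Asns: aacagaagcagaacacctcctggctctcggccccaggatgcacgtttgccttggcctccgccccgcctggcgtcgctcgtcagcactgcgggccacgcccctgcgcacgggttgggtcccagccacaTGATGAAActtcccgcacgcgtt
The mitotic cyclin gene Ccnb2 holds CCAAT boxes that begin 87, 54 and 21 bases before the start (chr9:70421555-70421704, minus strand).
Ccnb2: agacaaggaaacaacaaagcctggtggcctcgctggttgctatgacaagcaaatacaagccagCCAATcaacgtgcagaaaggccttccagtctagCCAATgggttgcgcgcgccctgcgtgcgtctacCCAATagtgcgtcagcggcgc
Cdc20, an activator of the anaphase-promoting complex, holds CCAAT at 53 and 8 bases and TTTGAA, the core of the cell cycle homology region, at 18 bases before the start (chr4:118437344-118437493, minus strand).
Cdc20: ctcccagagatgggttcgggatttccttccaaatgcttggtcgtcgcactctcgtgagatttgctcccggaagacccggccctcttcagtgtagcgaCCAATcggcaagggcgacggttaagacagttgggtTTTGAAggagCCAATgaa
Oas1a, an interferon-induced sensor of double-stranded RNA, holds a pair of overlapping matches to the core of the interferon-stimulated response element, GAAA and GAAA with any 2 bases between (chr5:120907526-120907675, minus strand). It was picked after its values were seen.
Oas1a: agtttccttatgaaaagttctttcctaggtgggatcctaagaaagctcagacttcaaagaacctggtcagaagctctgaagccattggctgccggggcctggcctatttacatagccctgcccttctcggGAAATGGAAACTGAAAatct

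Both strands of all 27025 promoters were searched over the same 150 bases. CCAAT stood in 25.3% of all promoters and in 18 of the 23 cell division promoters at hand, and TTTGAA in 9.24% and in 7 of 23. TGATGNAA stood in 2.26% of all promoters and in 4 of 19 promoters of the ATF4 list. The interferon element core stood in 1.60% of all and in 10 of 21 interferon response promoters. A match describes letters and is not a measured site of binding.

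Akr1c18, a 20-alpha-hydroxysteroid dehydrogenase known from the ovary, lay at 11.85, 12.48, 12.51, 12.73 and 12.69 in tumor replicates 1 to 5 and at 4.36, 4.01, 4.44, 4.23 and 4.22 in the controls. Each tumor therefore stood far above each control, with a difference of 8.20 ± 0.33 (adjusted p 1.1e-17). The gene was also 5.32 ± 0.33 higher in NTL than in control (adjusted p 3.98e-12), at 9.21 to 9.92. Gldn, which encodes gliomedin, an extracellular matrix protein of nerve nodes, lay at 10.18, 10.79, 9.95, 10.51 and 10.11 in the tumors and 4.10, 3.99, 4.23, 4.11 and 4.07 in the controls. Tumors and controls were each close together (6.21 ± 0.13, adjusted p 1.29e-25), and NTL lay between the groups at 5.46 to 6.08. Klrb1b, an inhibitory receptor known from NK cells, rose by 6.23 ± 0.36 (adjusted p 1.29e-13), with tumors at 9.08, 11.63, 10.16, 11.70 and 8.84 and controls at 3.83 to 4.36. Klrb1b is not among the 22 genes of the T and NK cell list, of which 1 was called higher and 6 lower (5 without control replicate 3). In that list Cd3e, a chain of the T cell receptor complex, fell by 1.04 ± 0.22. Against the 4 control arrays of the other experiments, however, Cd3e was 0.65 higher. Scd2, a fatty acid desaturase of the fetal liver, rose from 7.14 to 7.70 in controls to 12.08 to 12.62 in tumors (4.87 ± 0.35, adjusted p 9.83e-12).

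**Figure D1:**
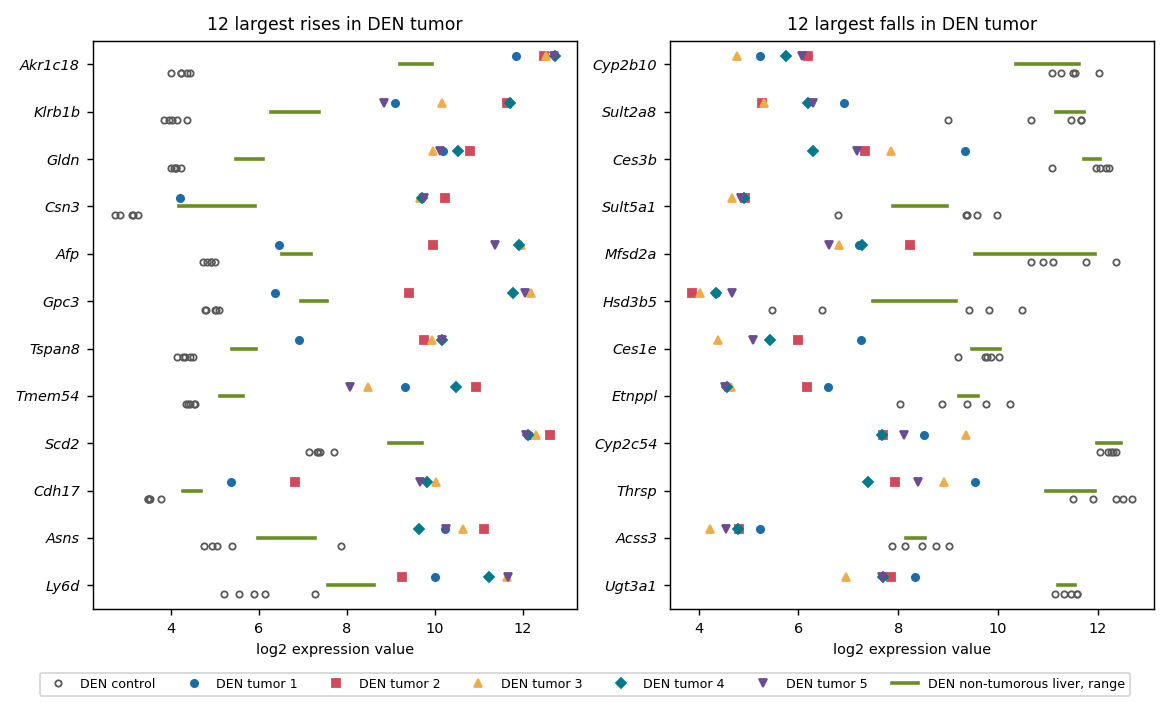
Log2 values of the 12 called genes with the largest rise (left) and the 12 with the largest fall (right) whose tumor and control values did not overlap. Filled symbols are the 5 DEN tumors, open circles the 5 DEN controls and the green bars the range of the 5 NTL arrays: Akr1c18 in NTL lies at 9.21 to 9.92, between the groups, while NTL for Ugt3a1 lies with the controls.

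Most genes of the oncofetal list rose, though not in each tumor alike. Of 22 measured genes listed as known from the fetal liver and liver cancer, 15 were called higher and none lower. Their median difference was 1.93 against -0.03 for all genes. The list was chosen with earlier results of these data known and holds Akr1c18, so the count and median partly reflect that choice. The count was 15 without DEN control replicate 3 and 14 with arrays of one mouse stem averaged. In NTL the median of the list was 0.50 relative to control, and 2 of its genes were called higher. Afp, the fetal counterpart of albumin, lay at 6.44, 9.96, 11.96, 11.91 and 11.36 in the tumors and 4.90, 4.73, 4.92, 4.82 and 5.01 in the controls. Replicate 1 was the lowest tumor, below the NTL range of 6.53 to 7.18, yet above all controls. The difference was 5.45 ± 0.55 (adjusted p 5.78e-09), and 6.42 without that tumor. Gpc3, a membrane proteoglycan used to diagnose human liver cancer, lay at 6.35, 9.41, 12.19, 11.76 and 12.05 in the tumors and 4.78, 5.10, 4.80, 5.01 and 5.01 in the controls. Here too replicate 1 was lowest and no control reached it (5.41 ± 0.75, adjusted p 1.14e-06, and 6.41 without replicate 1). Csn3, the milk protein kappa-casein, was at 4.20 in replicate 1 and 9.65 to 10.23 in the other tumors, with controls at 2.72 to 3.24. Its difference of 5.70 ± 0.61 became 6.82 when replicate 1 was left out.

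Other members of the oncofetal list showed further patterns. The tetraspanin Tspan8 was at 6.91 in replicate 1 and 9.75 to 10.16 elsewhere (5.05 ± 0.47, 5.66 without replicate 1). The cadherin Cdh17 was at 5.36 and 6.81 in replicates 1 and 2 and 9.66 to 10.03 in the others, with controls at 3.48 to 3.77. Its difference was 4.78 ± 0.52, and 5.53 without replicate 1. Golm1, a Golgi membrane protein, was high in all tumors at 8.37 to 9.96 against 4.87 to 5.20 (4.03 ± 0.35). Spink1, a trypsin inhibitor, lay at 5.22, 4.40, 6.67, 8.47 and 6.64 against 3.34 to 3.61. Vil1, which bundles actin in microvilli, was high in replicates 2, 3 and 5 at 9.09, 10.33 and 9.23 and near the controls in replicates 1 and 4 at 5.19 and 5.03. Its difference of 3.04 ± 0.70 (adjusted p 0.00102) was 3.68 without replicate 1, 2.40 without replicate 3 and 3.72 without replicate 4. Lin28b and the RNA-binding Igf2bp1 and Igf2bp3 were not called.

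The imprinted growth factor Igf2 and the neighbouring H19 locus were high in particular tumors. Igf2 lay at 5.81, 10.02, 6.18, 6.11 and 7.08 in the tumors and 5.73, 5.35, 5.46, 5.55 and 5.46 in the controls. Only replicate 2 was far above the rest: the difference was 1.53 ± 0.53 (adjusted p 0.0279), and 0.79 without that tumor, when it was no longer called (adjusted p 0.149), and the call was also lost without control replicate 2. Mir675, whose precursor lies within H19, lay at 5.60, 11.76, 8.78, 9.64 and 5.90 against 5.08, 4.90, 5.29, 5.18 and 5.17. All tumors stood above all controls, replicates 2, 3 and 4 by the widest margins (3.21 ± 0.91, adjusted p 0.0069). The difference was 3.90 and 3.82 without replicates 1 and 5, and 2.36 without replicate 2. H19 had no value of its own under the rule of 1 symbol per probe set.

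A cluster of imprinted RNA genes on chromosome 12 set 3 of the tumors apart. It holds Dlk1, the non-coding RNA genes Meg3 and Rian, and a run of small miRNA genes, and was singled out after its values were seen. Meg3 lay at 6.77, 7.38, 10.44, 10.47 and 10.80 in the tumors and 5.60, 6.13, 5.61, 6.03 and 6.07 in the controls. Replicates 3, 4 and 5 were high, while replicates 1 and 2 lay in the NTL range of 6.77 to 7.46 and still above the controls (3.29 ± 0.71, adjusted p 0.000555, and 3.89 without replicate 1). Rian was at 5.92, 6.39 and 6.69 in replicates 3, 4 and 5, at 4.03 and 3.78 in replicates 1 and 2, and at 3.43 to 3.74 in controls. Dlk1, which is expressed from the other parental copy, lay at 5.86, 6.04, 5.92, 7.01 and 6.16 in the tumors, against 5.75 to 6.22 in the controls, and was not called (0.27 ± 0.16, adjusted p 0.223).

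Of the 36 miRNA genes of the cluster, 23 were called higher and none lower, with a median difference of 0.69. Of the 267 miRNA genes elsewhere, 9 were called higher and 26 lower, with a median of -0.05. By array, the median of the 36 over the control mean was 0.00, 0.05, 0.68, 1.28 and 1.22 in tumor replicates 1 to 5, and 33, 35 and 35 of them stood above all controls in replicates 3, 4 and 5, against 7 and 12 in replicates 1 and 2. Replicate 4 shares its mouse stem with replicate 1, and was high where replicate 1 was not. The probe sets carry the names of precursor genes, and mature miRNA was not measured. Mir377 lay at 3.18, 3.78, 5.71, 6.58 and 6.81 against 3.00 to 3.07 (2.18 ± 0.52, adjusted p 0.00134). Mir382 lay at 3.01, 3.48, 5.73, 6.28 and 6.73 against 2.99 to 3.25 (1.95 ± 0.52, adjusted p 0.00383), and Mir323 at 3.89, 3.84, 5.86, 6.39 and 6.49 against 3.43 to 3.82 (1.70 ± 0.39, adjusted p 0.000929). The control values of these 3 genes, like those of Rian, Mir379 and Mir411, lay below the first quartile of the arrays, 4.17 to 4.21. So did the control means of most of the 36 miRNA genes. These levels are near the lower limit of the signal, so the differences, and the median of 0.69, give a direction rather than a size. Mir193a, whose miRNA is named in the title of the series, was at 4.71 to 5.22 in tumors and 4.91 to 5.35 in controls and was not called (-0.22 ± 0.13, adjusted p 0.239).

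Mature sequences of these 3 precursors and of Mir675 are shown as RefSeq gives them (GRCm38.p6), with the seed, bases 2 to 8, in capitals, because the seed selects the messages that a miRNA can pair with. Both arms are given, since the probe sets do not separate them. The miRNAs of Mir379 and Mir411 are added because they share a seed.
miR-377-5p: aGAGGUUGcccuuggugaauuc
miR-377-3p: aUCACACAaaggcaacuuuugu
miR-382-5p: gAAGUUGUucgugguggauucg
miR-382-3p: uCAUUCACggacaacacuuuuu
miR-323-5p: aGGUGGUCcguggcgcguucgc
miR-323-3p: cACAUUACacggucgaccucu
miR-379-3p: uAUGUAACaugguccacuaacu
miR-411-3p: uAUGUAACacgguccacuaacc
miR-675-5p: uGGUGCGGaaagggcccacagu
miR-675-3p: cUGUAUGCccuaaccgcucagu
The 36 precursor genes give 68 mature sequences with 66 different seeds. The other shared seed is that of miR-376b-5p and miR-376c-5p. Mir379 rose by 1.08 ± 0.34 and Mir411 by 0.83 ± 0.25, again with replicates 3, 4 and 5 high. Both calls were lost without tumor replicate 4, and that of Mir379 also without replicate 5 (highest adjusted p 0.0740 and 0.0573). In a fit of the 10 arrays alone neither was called (adjusted p 0.115 and 0.0920).

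**Figure D2:**
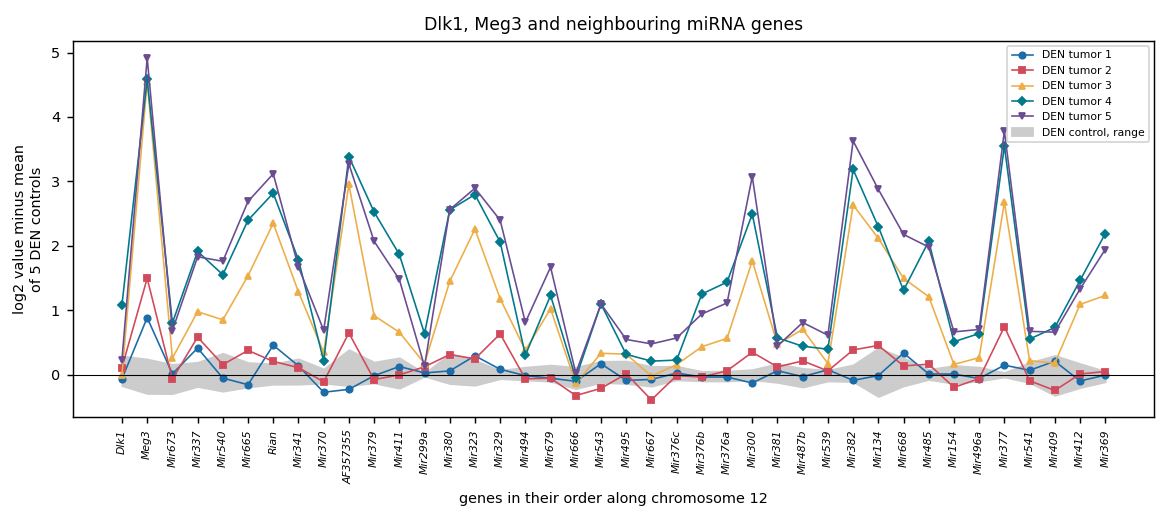
Log2 value of each tumor minus the mean of the 5 DEN controls for 40 neighbouring genes in their order along chromosome 12, with the range of the controls in grey. For most genes from Meg3 onward replicates 3, 4 and 5 lie above the controls together, though not for Mir666. They reach 10.44 to 10.80 for Meg3 itself, where replicates 1 and 2 are at 6.77 and 7.38.

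Cell division genes rose in all tumors and to different degrees. All 26 measured genes of mitosis and its checkpoints were called higher, and for all 26 the 5 tumors lay above the 5 controls. The median difference was 1.45, the count was 26 without DEN control replicate 3 and with arrays of one mouse stem averaged, and it was 25 without tumor replicate 4. Mki67, the proliferation marker, lay at 8.68, 7.92, 6.65, 9.18 and 7.25 in the tumors and 5.58, 5.52, 5.45, 5.36 and 5.48 in the controls. The tumors of one mouse stem, replicates 1 and 4, were highest and those of another, 3 and 5, lowest (2.46 ± 0.36, adjusted p 2.63e-06). Ccna2, the S phase and G2 cyclin, followed the same order at 8.78, 7.83, 6.67, 9.27 and 7.09 against 5.25 to 5.53 (2.48 ± 0.38, adjusted p 5.3e-06). Ccnb2 lay at 9.98, 8.39, 7.38, 10.49 and 7.80 against 5.99 to 6.60 (2.41 ± 0.46), and Top2a, the topoisomerase that untangles sister chromatids, at 7.10, 6.76, 5.59, 7.82 and 6.28 against 4.73 to 4.93 (1.85 ± 0.28). Over the list, the median above the control mean was 1.77, 1.56, 0.64, 2.54 and 0.86 in replicates 1 to 5. In NTL the median of the list was 0.21 relative to control, and none of its genes was called.

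Genes of DNA replication moved less. Of 24, 9 were called higher (10 without control replicate 3) and 1 lower, with a median of 0.37. The helicase subunits Mcm2 and Mcm6 rose by 1.10 ± 0.18 and 1.03 ± 0.23, and Ccne1, the cyclin of S phase entry, by 0.90 ± 0.23. Mcm10, which loads polymerase at origins, fell by 1.18 ± 0.23, from 6.67 to 7.91 in controls to 5.32 to 6.16 in tumors. Ccnd1, the G1 cyclin, was at 9.42 to 10.16 in tumors and 7.92 to 10.10 in controls and was not called (adjusted p 0.0519). Rrm2, a ribonucleotide reductase subunit, rose by 1.27 ± 0.26, but against the 4 control arrays of the other experiments it was 0.39 lower (adjusted p 0.307).

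The P450 enzymes and the enzymes that conjugate their products fell in DEN tumors. Of 29 P450 genes, 19 were called lower and 2 higher (median -1.51), while 14 were called lower without tumor replicate 2 and 18 without control replicate 3. Of 31 genes of sulfation, glucuronidation, methylation and ester cleavage, 25 were called lower and 1 higher (median -1.65). Many of these genes have near-identical paralogs, so probe sets may share signal among them. Cyp2b10, a target of the xenobiotic receptor CAR, lay at 5.23, 6.19, 4.77, 5.75 and 6.08 in the tumors and 12.03, 11.54, 11.26, 11.09 and 11.51 in the controls. The groups did not overlap (-5.88 ± 0.60, adjusted p 6.84e-09), while NTL lay at 10.36 to 11.63. Cyp2c54 and Cyp2c50, which oxidize fatty acids and drugs, fell by 3.96 ± 0.71 and 3.29 ± 0.72.

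Among the conjugating enzymes, the steroid sulfotransferase Sult2a8 lay at 6.92, 5.28, 5.32, 6.20 and 6.29 in the tumors and 9.01, 11.47, 10.67, 11.66 and 11.66 in the controls. Control replicate 1 was the lowest control, and no tumor reached it (-4.89 ± 0.42, adjusted p 2.21e-10). Ugt3a1, a sugar transferase, lay at 8.34, 7.85, 6.95, 7.69 and 7.68 against 11.14, 11.33, 11.47, 11.59 and 11.59, with a tight fall of 3.72 ± 0.22 (adjusted p 1.91e-13). The carboxylesterases Ces3b and Ces1e fell by 4.30 ± 0.48 and 4.09 ± 0.33, and Gnmt, the methyltransferase that keeps methyl donor levels in check, by 1.65 ± 0.21. Ces2e went the other way, by 1.01 ± 0.16. In NTL the medians of both lists were at 0.00 relative to control, and none of their genes was called.

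The enzymes that handle DEN itself were not uniformly lower. Of 10 genes of DEN activation and repair of alkylated DNA, 3 were called lower, but 1 without control replicate 3, and 1 higher. The shares over all genes were 15.6% lower and 15.0% higher. Cyp2e1 lay at 12.66, 11.80, 13.43, 12.41 and 13.56 in the tumors and 13.48, 13.50, 13.55, 13.43 and 13.47 in the controls, so replicates 3 and 5 were at control level and the others below it. Its fall of 0.71 ± 0.25 (adjusted p 0.031) was lost without control replicate 2 or 3 or tumor replicate 1, 2 or 4 (highest adjusted p 0.147). Mgmt, which removes alkyl groups from guanine, fell by 1.02 ± 0.23, from 7.33 to 7.87 in controls to 6.09 to 6.93 in tumors. Alkbh2, a dioxygenase that repairs alkylated bases, rose by 0.72 ± 0.09, from 7.18 to 7.46 to 7.77 to 8.22. Of 14 genes of the response to carcinogens and preneoplasia, 3 were called lower and 2 higher, counts near the 15.6% and 15.0% of all genes. Among them the aldo-keto reductase Akr1b10 was 0.78 ± 0.19 higher and the epoxide hydrolase Ephx1 0.88 ± 0.25 lower.

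Uptake, bile acid and fuel genes of the hepatocyte fell in most lists. Of 23 transporter genes, 14 were called lower and 2 higher. The organic anion carrier Slco2b1 lay at 8.20, 6.30, 7.20, 7.04 and 7.40 in the tumors and 10.05, 10.26, 10.29, 10.27 and 10.28 in the controls, a gap without overlap (-3.00 ± 0.25, adjusted p 1.23e-10). The glucose carrier Slc2a2 fell by 2.82 ± 0.25 and the bile acid carrier Slc10a1 by 1.79 ± 0.30. Of 15 bile acid genes, 12 were called lower (11 without control replicate 3) and 1 higher (median -1.09). Cyp7a1, the rate-limiting enzyme of bile acid synthesis, lay at 9.14, 6.09, 8.60, 8.15 and 8.47 against 11.49, 12.04, 10.53, 10.12 and 11.24 (-3.00 ± 0.50, adjusted p 2.3e-05). Cyp8b1, which makes cholic acid, was at 8.61 in tumor replicate 1 and 6.11 to 6.45 in the others, against 9.11 to 11.47. Cyp39a1, which hydroxylates 24-hydroxycholesterol, was the exception: tumors lay at 10.28 to 11.12, and controls at 9.27, 6.42, 9.27, 5.86 and 5.56 (3.30 ± 0.50).

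Fatty acid oxidation fell broadly. Of 25 genes, 19 were called lower and 1 higher (median -0.89). Acaa1b, a peroxisomal thiolase, lay at 8.81, 7.20, 7.01, 7.51 and 7.27 against 10.43, 10.52, 10.88, 10.87 and 10.75 (-3.13 ± 0.26, adjusted p 1.35e-10). Acot1, an acyl-CoA thioesterase and PPAR-alpha target, fell by 2.47 ± 0.38. Cpt1a, the gatekeeper of mitochondrial fatty acid entry, was at 11.67 to 12.21 against 11.81 to 12.43 and was not called (adjusted p 0.528). Vnn1, a pantetheinase listed with PPAR-alpha targets, rose by 2.12 ± 0.52, with control replicate 3 at 10.15 and the other controls at 6.16 to 6.88. Without that control its rise was 2.85, and against the 4 controls of the other experiments it was 1.75 lower (adjusted p 0.0143).

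Lipid genes moved in both directions. Of 33 genes of lipid synthesis and storage, 8 were called higher and 7 lower, with a median of 0.03. Over all genes, 15.0% were called higher and 15.6% lower. Lpl, the lipoprotein lipase that adult liver hardly makes, lay at 10.74, 11.29, 11.43, 10.47 and 11.41 against 7.58, 6.91, 7.31, 7.07 and 8.09 (3.68 ± 0.33, adjusted p 4.95e-10). The lipid droplet protein Cidea rose by 3.11 ± 0.56, but was 0.64 lower than in the 4 controls of the other experiments (adjusted p 0.453). Thrsp, a regulator of lipogenesis, lay at 9.54, 7.94, 8.93, 7.40 and 8.40 against 11.90, 12.70, 11.51, 12.51 and 12.36 (-3.75 ± 0.45), and the malic enzyme Me1 fell by 2.31. Mfsd2a, which carries lysolipids with omega-3 chains, fell by 4.13 ± 0.48. Of 19 cholesterol genes, 8 were called higher and none lower (7 and 1 without control replicate 3), among them the lanosterol synthase Lss (1.30 ± 0.23), the mevalonate kinase Mvk (1.28 ± 0.23) and the squalene epoxidase Sqle (1.26 ± 0.31). Against the 4 controls of the other experiments Sqle was 0.47 higher and not called (adjusted p 0.308). The number of cholesterol genes called lay between 6 and 10 when arrays were left out.

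Of 30 genes of amino acid breakdown, 17 were called lower (18 without control replicate 3) and 1 higher (median -0.67). Prodh, the proline dehydrogenase, lay at 7.46, 7.41, 8.76, 6.41 and 8.82 against 10.18, 10.32, 9.86, 9.94 and 10.11 (-2.31 ± 0.35, adjusted p 5.75e-06), and Csad, of taurine synthesis, fell by 2.29 ± 0.25. Glycolysis and the pentose phosphate pathway had 4 of 24 called higher and 5 lower (3 and 4 without control replicate 3), counts near the 15.0% and 15.6% of all genes. The platelet-type phosphofructokinase Pfkp rose by 1.14 ± 0.28, and the liver pyruvate kinase Pklr fell by 0.90 ± 0.23. The higher count was 2 without control replicate 4 or tumor replicate 3, and the lower count 3 without control replicate 4 or 5.

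Amino acid synthesis under ATF4, the transcription factor of the response to amino acid shortage, rose. Of 21 genes, 12 were called higher and 2 lower (median 0.82), and 11 had all tumors above all controls. Asns, the asparagine synthetase whose promoter is shown above, lay at 10.22, 11.10, 10.63, 9.63 and 10.24 in the tumors and 7.87, 4.92, 5.04, 4.75 and 5.39 in the controls. Control replicate 1 stood above the other controls and below all tumors (4.77 ± 0.54, adjusted p 4.11e-08). Psat1, of serine synthesis, lay at 8.82, 9.53, 8.93, 10.59 and 8.99 against 4.91, 4.89, 4.83, 4.84 and 4.65 (4.55 ± 0.29, adjusted p 9.61e-13), and Phgdh, the first enzyme of that pathway, at 7.95 to 9.00 against 6.06 to 6.50 (2.05 ± 0.33). The factor Atf3 rose by 3.58 ± 0.31 and the pseudokinase Trib3 by 2.28 ± 0.29. Cth, which makes cysteine, fell by 1.19 ± 0.17. Of 18 genes of endoplasmic reticulum chaperones, 6 were called higher and none lower, 5 without control replicate 3 and 3 without tumor replicate 4, and the largest rises were those of Sdf2l1 (0.96 ± 0.33) and Pdia6 (0.71 ± 0.17). The call of Sdf2l1 was lost without control replicate 2 or 3 or tumor replicate 2 or 4 (highest adjusted p 0.0731).

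Of 20 genes known as p53 targets, 12 were called higher (11 without control replicate 3) and 3 lower (median 0.74). Btg2, an antiproliferative gene, lay at 10.35, 10.72, 11.26, 10.88 and 10.62 against 8.03, 7.0, 7.42, 7.14 and 7.43 (3.36 ± 0.22, adjusted p 1.8e-12). Tnfrsf10b, a death receptor, lay at 7.69, 6.78, 8.04, 8.64 and 7.56 against 5.00, 5.25, 5.32, 5.26 and 5.35 (2.51 ± 0.29). Cdkn1a, the p21 cell cycle inhibitor, lay at 10.45, 11.00, 11.38, 10.95 and 10.34 against 9.91, 9.31, 8.70, 8.60 and 8.48, all tumors above all controls (1.82 ± 0.41, adjusted p 0.000899). In NTL Cdkn1a reached 10.08 to 11.07, and was not called there (adjusted p 0.116). The NTL median of the list was 0.24 relative to control, and 1 of its genes was called higher. The death receptor Fas fell by 0.50 ± 0.12.

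Of 27 targets and feedback genes of the ERK pathway, the growth factor kinase cascade downstream of Ras, 15 were called higher and 1 lower (median 0.70). Dusp5, an ERK phosphatase induced by ERK, lay at 8.05, 7.69, 8.52, 9.40 and 8.95 against 6.20, 6.23, 6.31, 6.16 and 6.70 (2.20 ± 0.19, adjusted p 2.01e-10). Its relative Dusp6 overlapped between groups, at 8.86, 9.80, 11.14, 10.22 and 10.65 against 8.16, 8.23, 9.66, 9.03 and 8.85 (1.35 ± 0.32, adjusted p 0.0012). Hbegf, a ligand of the EGF receptor, rose by 1.72 ± 0.18 and the early response gene Egr1 by 2.24 ± 0.39. Phlda1 fell by 1.24 ± 0.34. Myc lay at 8.95, 7.88, 8.42, 8.12 and 8.64 against 9.23, 9.95, 7.15, 7.41 and 8.27, with both groups spread over the same range (adjusted p 0.999). Of 16 genes of the Hippo pathway and YAP targets, 6 were called higher and 2 lower (1 without control replicate 3). Among them were the Hippo pathway transcription factor Tead4 (1.38 ± 0.15) and, in the other direction, Fgf1 (-1.41 ± 0.27).

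Zonation genes divided the tumors by mouse stem. Over 22 Wnt-dependent pericentral genes, 2 were called higher and 5 lower, but the tumors lay on both sides of the controls. Only 2 were called lower without tumor replicate 2 or 4, and 3 without tumor replicate 1 or control replicate 2 or 3. The median over the control mean was -0.99, -1.56 and -0.96 in tumor replicates 1, 2 and 4, and 0.88 and 0.81 in replicates 3 and 5. Glul, the glutamine synthetase of the cells around the central vein, lay at 10.76, 9.21, 12.71, 10.49 and 12.31 in the tumors and 11.65, 12.14, 12.41, 11.79 and 12.01 in the controls. Replicate 3 was above the controls, replicate 5 within their range and replicates 1, 2 and 4 below all of them, and the group difference was not called (adjusted p 0.234). Lgr5, a Wnt receptor component and target, lay at 6.59, 5.81, 10.21, 7.38 and 10.49 against 6.74 to 8.20, and Axin2, the feedback inhibitor of the pathway, at 5.62, 5.05, 8.24, 5.91 and 7.99 against 6.32 to 7.47. The feedback lipase Notum was at 8.37 and 8.14 in replicates 3 and 5 and 5.49 to 6.60 in the others, and the ammonium channel Rhbg at 9.27 and 9.49 against 5.66 to 6.56.

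Periportal genes set the same tumors apart in the other direction, though their median lay below the control mean in all 5 tumors. Of 15, 8 were called lower (7 without control replicate 3) and none higher (median -0.90), and by array the median was -0.51, -0.24 and -0.61 in replicates 1, 2 and 4, and -1.53 and -1.39 in replicates 3 and 5. Cyp2f2, a periportal P450, lay at 11.37, 11.26, 7.51, 10.39 and 9.03 against 12.92, 13.21, 12.96, 13.26 and 13.28 (-3.21 ± 0.72, and -2.61 without replicate 3). Hal, the histidine ammonia-lyase, lay at 10.57, 11.97, 7.72, 11.06 and 7.83 against 11.12 to 11.96, and Gldc, of glycine cleavage, at 9.82, 10.86, 6.47, 10.37 and 5.65 against 10.02 to 10.75. Gldc was called lower (adjusted p 0.0469), and the call was lost without any 1 of the 5 controls or tumor replicates 3 and 5 (highest adjusted p 0.225, and a fall of 1.08, without replicate 5). The urea cycle enzyme Asl was lower in all tumors, by 1.29 ± 0.18, and G6pc and Pck1, of glucose synthesis, by 1.18 ± 0.24 and 1.13 ± 0.25, though against the 4 controls of the other experiments Pck1 was 0.48 lower and not called (adjusted p 0.175). Differences between tumors were chosen from these values and have no test.

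**Figure D3:**
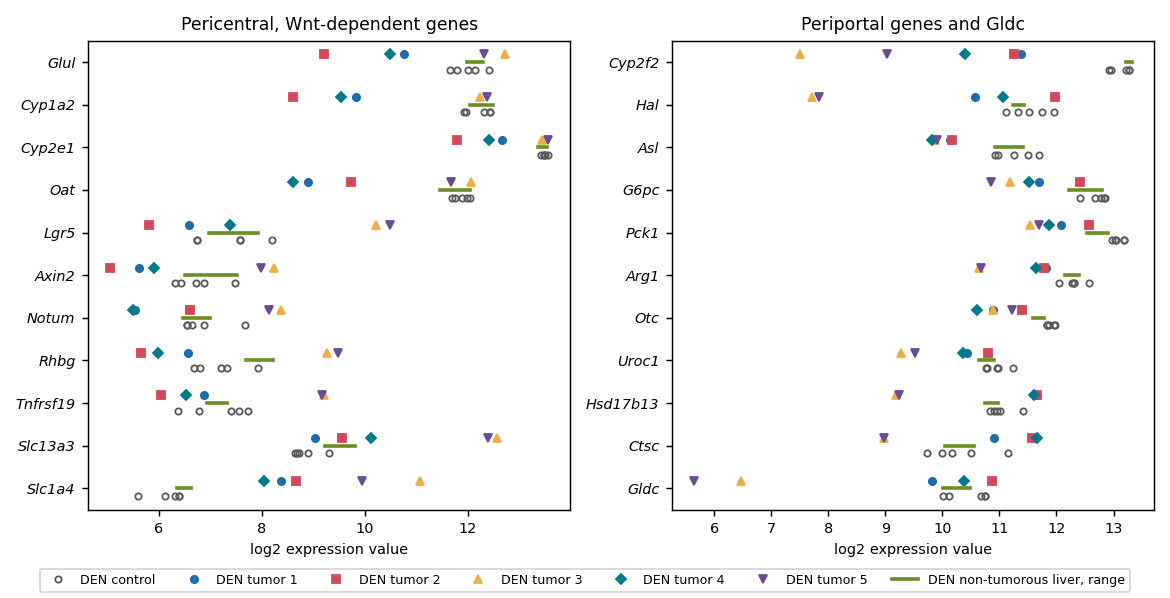
Log2 values of pericentral, Wnt-dependent genes (left) and of periportal genes and Gldc (right) in the 5 DEN tumors (filled symbols), the 5 DEN controls (open circles) and the range of NTL (green bars). Tumor replicates 3 and 5 sit high on the left, Lgr5 at 10.21 and 10.49, and low on the right, Hal at 7.72 and 7.83.

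Genes with male- or female-biased expression in liver varied in both groups. Of 21 male-biased genes, 11 were called lower and none higher (median -1.49). This list shares members with the P450, conjugation, transporter, bile acid and lipid lists above, among them Slco1a1, Sult5a1, Cyp7b1 and Elovl3. Its count is therefore not separate from theirs. Of 15 female-biased genes, 3 were called higher and 2 lower (median 0.18), and 1 higher without tumor replicate 4. The female-biased counts are near the 15.0% and 15.6% of all genes. The steroid dehydrogenase Hsd3b5 lay at 4.35, 3.87, 4.03, 4.34 and 4.66 in the tumors and 5.48, 9.42, 6.47, 9.82 and 10.49 in the controls. Controls 1 and 3 were the lowest controls, and all tumors were lower still (-4.09 ± 1.19, adjusted p 0.00803, and -4.80 without control replicate 1). The carrier Slco1a1 fell by 4.01 ± 1.10 and overlapped, with control replicate 1 at 7.15 and tumors at 4.73 to 7.51, and its fall was 4.74 without that control. Elovl3, a fatty acid elongase, fell too (-3.65 ± 1.00, -4.41 without control replicate 1 and -3.07 without control replicate 5). The female-biased Cyp2b9 lay at 11.31 to 12.61 in tumors and 12.72, 4.69, 13.08, 5.92 and 9.00 in controls. Its rise of 3.10 ± 1.19 (adjusted p 0.0469) was 4.01 and 4.10 without control replicates 1 and 3, 2.01 and 2.31 without control replicates 2 and 4, and lost its call when any of control replicates 2, 4 and 5 or tumor replicates 2 to 5 was left out (highest adjusted p 0.208). The estrogen sulfotransferase Sult1e1 was at 10.47 and 11.92 in tumor replicates 3 and 5 and 4.25 to 5.15 in the others, against 7.66 in control replicate 1 and 4.13 to 4.31 in the other controls, and was not called.

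Of 34 plasma protein genes, 10 were called higher and 5 lower (4 without control replicate 3), with a median of 0.00, so the lower count is near the 15.6% of all genes. Igfbp1, which binds insulin-like growth factors, lay at 11.75, 12.78, 12.94, 12.31 and 12.88 against 10.15, 9.78, 9.11, 8.77 and 8.19 (3.33 ± 0.48, adjusted p 2.46e-06). Igfals, a subunit of the circulating complex of those factors, fell by 2.77 ± 0.24 and Igf1 itself by 1.77 ± 0.32. Of 23 acute phase genes, 4 were called higher and 4 lower, counts near the 15.0% and 15.6% of all genes. The higher count was 8 without control replicate 1 or tumor replicate 2, and the lower count 2 without control replicate 3 or tumor replicate 2. Lcn2, an iron-binding defence protein, was at 12.76 to 13.34 in tumors and 12.04, 10.26, 11.47, 8.70 and 9.31 in controls (2.74 ± 0.50), and Il1rn, the antagonist of interleukin 1, rose by 3.14 ± 0.30. Of 18 complement genes, 2 were called higher and 7 lower, the lectin Mbl2 by 2.26 ± 0.31.

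In bulk tissue, fewer cells of a type and less RNA per cell cannot be told apart. Kupffer cell genes were lower. Of 20 markers of these resident macrophages, 14 were called lower (13 without control replicate 3) and none higher (median -1.04), and the mean level of the list ranged from 7.24 to 8.09 in the tumors and 8.37 to 8.78 in the controls. Cd163, a receptor for hemoglobin complexes, lay at 5.21, 4.35, 4.41, 5.5 and 4.69 against 7.77, 8.25, 7.47, 7.44 and 7.25 (-2.81 ± 0.37, adjusted p 4.88e-07). Clec4f, the lectin that defines Kupffer cells, lay at 9.06, 8.41, 7.86, 8.63 and 7.18 against 10.37, 10.21, 10.32, 9.95 and 9.95 (-1.93 ± 0.41). Timd4, of long-lived Kupffer cells, fell by 1.38 ± 0.31. Of 18 monocyte, recruited macrophage and neutrophil genes, 7 were called higher and 2 lower, and none was lower without tumor replicate 2. The tetraspanin Cd9, which other cells also make, rose by 2.20 ± 0.22, and Ms4a7 by 1.52 ± 0.36, though Ms4a7 was 0.82 higher and not called against the 4 controls of the other experiments (adjusted p 0.105). The part of these cell type differences in the other results was not tested.

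Vascular endothelial genes were higher. Of 24 vascular and capillary genes, 18 were called higher (17 without control replicate 3) and 1 lower (median 0.98), and 17 had all tumors above all controls. Mean levels of the list ranged from 7.54 to 8.12 in tumors and 6.62 to 6.88 in controls. Cd34, which sinusoidal cells of normal liver lack, lay at 8.15, 8.76, 8.89, 7.74 and 8.80 against 6.64, 6.23, 5.85, 6.02 and 5.88 (2.34 ± 0.33, adjusted p 1.97e-06). Esm1, of endothelial tip cells, lay at 7.14, 8.69, 8.98, 7.59 and 8.51 against 5.83, 4.84, 4.86, 5.33 and 5.26 (2.96 ± 0.30, adjusted p 4.46e-09), and Angpt2, which destabilizes vessels, at 6.47, 7.74, 8.87, 6.76 and 7.93 against 4.94 to 5.75 (2.26 ± 0.39). Of 20 sinusoidal genes, 7 were called lower and 2 higher (9 and 1 without control replicate 3). Rspo3, the amplifier of Wnt signals made by central vein endothelium, fell by 1.32 ± 0.20, to 5.10 to 6.61 from 6.68 to 7.01, and the ligand Wnt2 by 0.80 ± 0.17. Wnt2 was lowest in replicates 3 and 5, at 4.30 and 4.48.

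Matrix and duct genes were mixed and higher, respectively. Of 27 stellate cell and myofibroblast genes, 8 were called higher and 6 lower (5 lower without control replicate 3), and 5 were higher without control replicate 2 or tumor replicate 4. Over all genes, 15.0% were called higher and 15.6% lower. Acta2, the actin of contractile cells, was at 10.45 in tumor replicate 4 and 8.51 to 9.01 in the others, against 6.41 to 8.27 (1.83 ± 0.46), and Col1a1, of fibrillar collagen, at 7.14 to 7.70 against 5.99 to 6.85 (1.08 ± 0.32). Hgf, the hepatocyte growth factor of quiescent stellate cells, fell by 1.48 ± 0.27. Of 19 cholangiocyte and progenitor genes, 14 were called higher and none lower, but 12 without control replicate 3, 10 without tumor replicate 1 and 9 with arrays of one mouse stem averaged. Sox9, the duct and progenitor factor, lay at 9.56, 9.55, 8.95, 8.96 and 9.00 against 6.95, 6.52, 6.72, 6.66 and 6.91 (2.45 ± 0.24, adjusted p 2.01e-09). Prom1, a stem cell surface protein, rose by 4.05 ± 0.44, with replicate 1 lowest at 6.90. Krt19, the defining duct keratin, lay at 4.58 to 5.49 against 4.75 to 5.32 and was not called (adjusted p 0.763). The trefoil peptide Tff3 was at 12.11 and 11.45 in replicates 2 and 4 and 8.13 to 8.17 in the others, against 6.02 to 6.25 (3.45 ± 0.77, and 2.82 without replicate 2).

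Interferon response genes were higher. Of 28, 20 were called higher (21 without control replicate 3) and none lower (median 0.77), and between 17 and 21 when arrays were left out. Usp18, which restrains interferon signalling, lay at 9.96, 10.55, 11.19, 10.12 and 10.82 against 7.86, 7.99, 8.21, 7.0 and 8.03 (2.71 ± 0.34, adjusted p 2.7e-07). Oas1a lay at 6.89, 8.00, 7.35, 7.22 and 7.59 against 5.56, 5.57, 5.92, 5.82 and 5.54 (1.73 ± 0.21, adjusted p 1.73e-07), and Ifit1 at 7.54 to 8.70 against 6.47 to 6.98 (1.37 ± 0.30). Of 30 NF-kB targets and cytokines, 11 were called higher (12 without control replicate 3) and 2 lower. The TWEAK receptor Tnfrsf12a rose by 2.88 ± 0.22, the monocyte chemokine Ccl2 by 1.66 ± 0.36 with replicate 1 highest at 9.41, and the alarmin Il33 by 1.49 ± 0.39, with replicates 2 and 4 highest at 7.96 and 7.99. Ccl2 was 0.77 higher and not called against the 4 controls of the other experiments (adjusted p 0.124), and the call of Il33 was lost in the fit of the 10 arrays alone (adjusted p 0.0683). Cxcl12 fell by 1.92 ± 0.23. Of 19 NK receptor ligand and MHC genes, 6 were called higher and 1 lower (7 and none without control replicate 3), and the poliovirus receptor gene Pvr rose by 1.40 ± 0.18. This list also holds Klrb1b, a receptor and not a ligand, which is among those called higher. The class I gene H2-K1 rose by 0.59 ± 0.11, but lay 0.42 below the 4 controls of the other experiments (adjusted p 0.00752).

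Of 25 genes listed for epithelial adhesion and cytoskeleton, 17 were called higher and 1 lower, with 14 higher without control replicate 3 and 13 with arrays of one mouse stem averaged. The list was chosen with earlier results of these data known. It holds Gldn, and shares Cdh17 and Tspan8 with the oncofetal list, so its count partly reflects that choice. The hepatocyte keratins Krt8 and Krt18 rose by 0.82 ± 0.17 and 1.09 ± 0.18. Cdh1, E-cadherin, lay at 10.14, 9.89, 10.46, 10.46 and 10.04 against 7.54, 7.50, 8.27, 7.67 and 8.36 (2.33 ± 0.61, adjusted p 0.00327). Tmem54, a membrane protein of epithelia, lay at 9.32, 10.94, 8.48, 10.48 and 8.06 against 4.38, 4.53, 4.43, 4.54 and 4.33 (5.01 ± 0.31, adjusted p 4.32e-13).

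Of 26 hepatocyte transcription factors and nuclear receptors, 8 were called lower (7 without control replicate 3) and 2 higher. Onecut2 lay at 9.92, 8.83, 8.05, 8.29 and 7.82 against 10.44, 10.42, 10.81, 10.67 and 10.56 (-2.0 ± 0.35), and the bile acid receptor gene Nr1h4 fell by 1.22 ± 0.14. Hnf4g, a relative of Hnf4a, lay at 4.57, 6.07, 5.68, 4.81 and 5.59 against 3.60 to 3.95 (1.55 ± 0.20, adjusted p 3.24e-07).

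**Figure D4:**
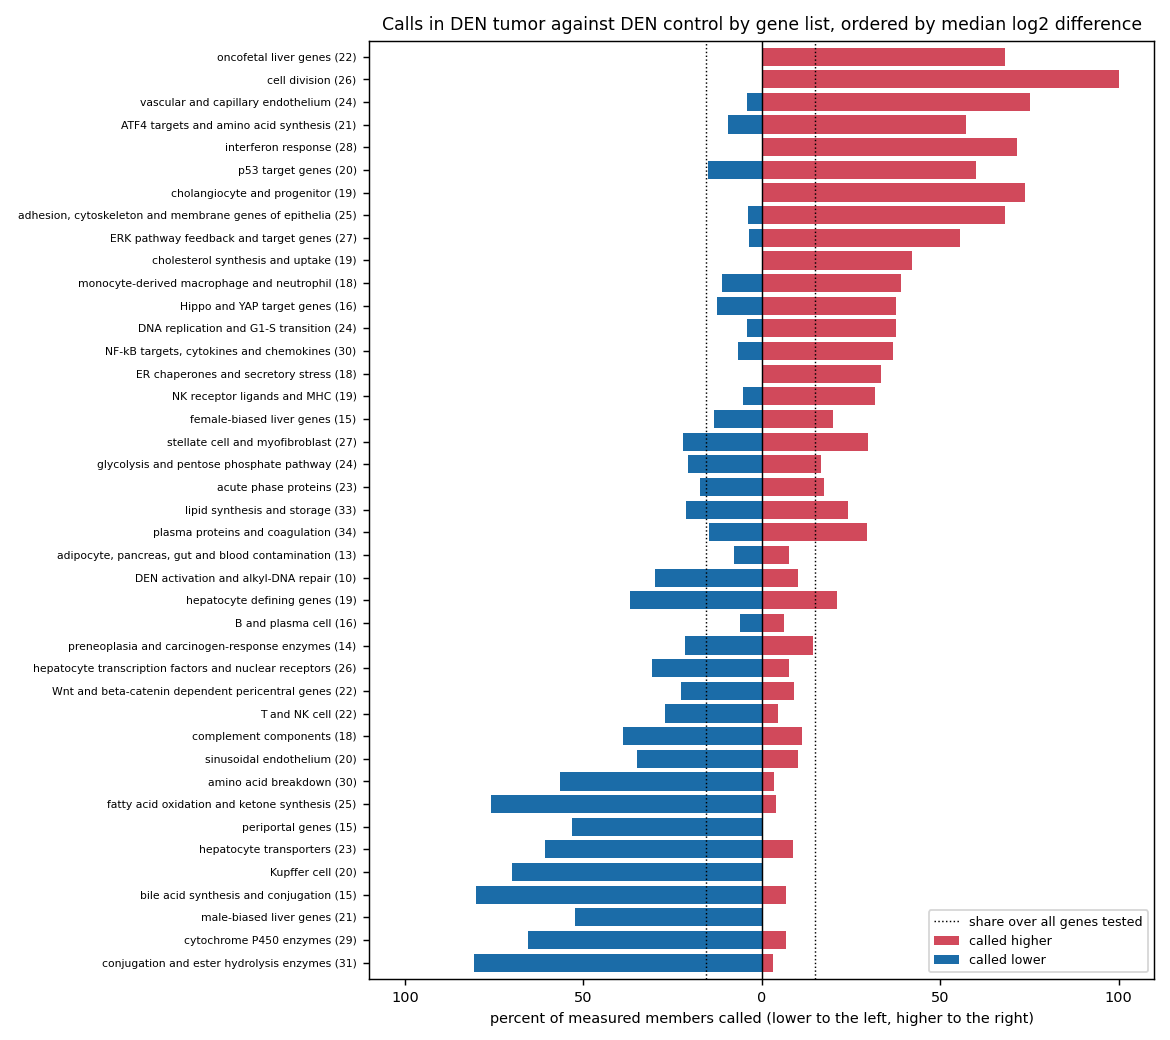
Share of measured members (number in brackets) called higher (red, to the right) or lower (blue, to the left) in DEN tumor for 41 of the 42 gene lists (all but the sex chromosome genes), ordered by their median log2 difference. Dotted lines mark the 15.0% and 15.6% of all tested genes called higher and lower: oncofetal genes have the highest median, 1.93, followed by cell division at 1.45, and conjugation enzymes at the lower. The lists were chosen with earlier results of these data known.

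The tumors differed more among themselves than the controls did. The median standard deviation per gene was 0.164 in tumors, 0.124 in controls and 0.116 in NTL, and 66.0% of genes had the larger standard deviation in tumors than in controls. Replicate 1 was nearest to control, with 1144 genes more than 2-fold from the control mean, and the others had 1452 to 1589. NTL arrays had 105 to 175. Mmd2 stood highest in replicate 2 at 10.56, against 4.43 to 5.15 in the other tumors and 7.66 to 9.61 in the controls. Its fall of 2.18 ± 0.77 was 3.31 without that tumor, and was lost without control replicate 1 or tumor replicate 1, 3, 4 or 5 (highest adjusted p 0.101).

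Replicate 2 also stood apart by chromosome. Over the genes of an autosome with a mean over the 10 arrays above 5.5, its median difference from the control mean was 0.32 on chromosome 15, -0.28 on chromosome 12 and -0.26 on chromosome 8. Across autosomes its medians ranged from -0.28 to 0.32, against -0.11 to 0.15 in the other tumors and -0.05 to 0.06 for each control against the other 4. Its Y-linked genes Eif2s3y, Kdm5d and Uty were at 6.73, 6.19 and 6.32, below the other tumors at 8.87 to 8.98, 7.81 to 7.95 and 7.99 to 8.46. In replicate 3 chromosome 1 was highest, at 0.15, and in replicate 4 chromosome 15, at 0.11. Copy number was not measured, and these values have no test.

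**Figure D5:**
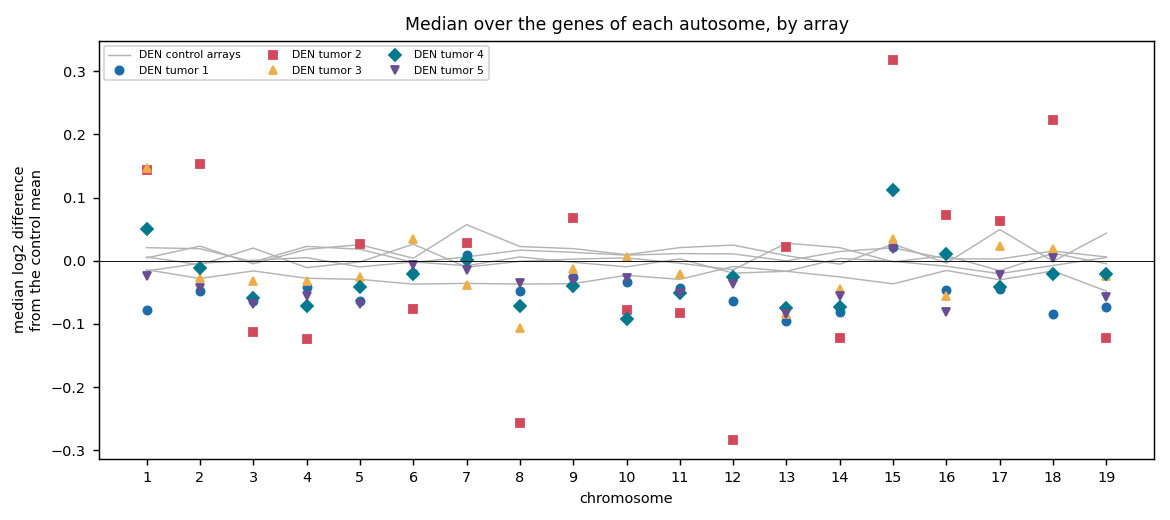
Median log2 difference from the control mean over the genes of each autosome, for the 5 tumors (symbols) and for each control against the other 4 (grey lines). Replicate 2 lies at 0.32 on chromosome 15 and -0.28 on chromosome 12, outside the range of the controls.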

How the data were processed

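The deposited table holds log2 expression values of Affymetrix mouse gene arrays that the authors made with RMA, as the submitters' processing notes name it, in a version not given in the sources used here. RMA subtracts background, equalizes the distributions of all arrays and summarizes probes per probe set, so a shift of all genes together cannot be seen, and genes near the lower limit have understated differences. Groups were taken from the sample titles. Of 35556 probe sets, 21218 had 1 gene symbol in the platform annotation, 1881 had several and 12457 none; the brightest probe set per gene gave 18820 genes. limma 3.58.1 in R 4.3.3 fitted a mean per group over all 35 arrays, and adjusted p-values are from that fit (eBayes, Benjamini-Hochberg over all genes, 0.05). The fit was tested on simulated data.

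The members and lists were chosen with earlier results of these data known. Named genes were the 12 largest rises and falls without overlap between groups, up to 4 called members per list and 1 in the other direction, the 4 with the largest tumor spread in each direction, and a fixed set of markers. Other list members and the genes of the chromosome 12 cluster were named after their values were seen. Predicted, histone, receptor and Mup genes were left out of the ranked parts. Alternatives changed the arrays in the fit, centring, the dim gene filter, the probe set rule, the variance model, the handling of mouse stems and replicate numbers, the control group, array weights and the least fold, and left out each array in turn. Promoter and miRNA sequences are those of RefSeq. The number of arrays limits the precision.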

Additional observations from a re-analysis of the deposited data

Results flagged for a closer look

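In groups of 5 arrays, 1 array can lie far from the nearest other relative to the range of its group, which chance alone gives in about 1 in 20 groups. This held for 35 of the 312 groups tested, those of tumors and controls for 156 genes. The groups share arrays and are not independent. Some of the genes were named for a large spread or after their values were seen, so the count cannot be set against chance. DEN tumor replicate 1 stood apart most often: it was high for Acaa1b at 8.81, Csad at 8.79, Cyp8b1 at 8.61 and Me1 at 9.76, and low for Akr1c18 at 11.85, Csn3 at 4.20, Cyp2b9 at 11.31, Mcm2 at 7.22, Prom1 at 6.90 and Tspan8 at 6.91. DEN tumor replicate 2 was high for Mmd2 at 10.56 and stood apart for Cth at 11.28 and for the Y-linked genes Eif2s3y at 6.73, Kdm5d at 6.19 and Uty at 6.32. DEN tumor replicate 4 was high for Acta2 at 10.45 and Dlk1 at 7.01.

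Among the controls, replicate 3 was high for Xist at 12.02 and Vnn1 at 10.15, stood apart for Alkbh2 at 7.46, Ccna2 at 5.25, Ccnb2 at 5.99 and Rspo3 at 6.68, and was low for Eif2s3y at 4.85, Kdm5d at 4.67 and Uty at 4.37. Control replicate 1 was high for Asns at 7.87, Il33 at 5.62, Mmd2 at 9.61 and Sult1e1 at 7.66, and low for Ces3b at 11.08 and Slco2b1 at 10.05. Control replicate 4 was low for Usp18 at 7.0, and control replicate 5 high for Cdh17 at 3.77 and Dusp5 at 6.70.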

How the results depend on the processing

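The counts of 2832 genes called higher and 2943 lower ranged from 2208 to 3177 and from 2308 to 3300 over the 20 refits, and were 775 and 455 with a change of at least 2-fold required. Leaving out each array in turn gave 2590 to 2810 higher and 2616 to 2924 lower. Same-numbered tumor and control arrays correlated at -0.02, -0.02, 0.08, 0.12 and -0.01, and those with different numbers at -0.12 to 0.10. These small values do not settle whether the replicate numbers pair the arrays. With the replicate block 2208 genes were called higher and 2308 lower.

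Of the 211 named genes that were called, 155 kept their call in all refits, 52 lost it in at least 1, and 5 changed direction with the 4 controls of the other experiments: Cd3e 0.65, Cidea -0.64, H2-K1 -0.42, Rrm2 -0.39 and Vnn1 -1.75. Vnn1 counts under both, since its call was also lost in the fit of the 10 arrays alone (adjusted p 0.0515). Of the uncalled genes, Krt19 was at -0.0061 with mouse stems averaged and between -0.017 and 0.21 when arrays were left out. Myc was at 0.57 with those other controls, 0.12 with array weights and between -0.31 and 0.39 when arrays were left out. Values that moved by over 1.5 times in the direction of the report were, with those other controls, Acot1 -1.49, Cd163 -1.77, Cyp2b10 -3.84, Cyp2b9 0.87 (not called, adjusted p 0.650), Cyp39a1 1.54, Ifit1 0.88, Lss 0.76, Krt8 0.54, Pdia6 1.46, Sdf2l1 1.62 and Wnt2 -1.38, besides those given beside their results. They were Prom1 2.19 and Top2a 0.60 with the mean of all probe sets, Cyp2e1 -0.44 and Gldc -2.81 with array weights, and Mmd2 -1.43 with mouse stems averaged. The cause was not tested. Genes with control values under the first quartile of the arrays, at 4.17 to 4.21, such as Csn3, Klrb1b, Gldn, Cdh17, Cidea, Rian, Mir377, Mir382, Mir323, Mir379 and Mir411, are close to the lower limit of the signal, so their differences give a direction rather than a size.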
